A study of Mus musculus with 10 samples.

Results

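The E2F transcription factors and the pocket proteins that bind them were examined in mouse dendritic cells, which take up antigen and present it to T cells. They are 10 genes chosen by symbol, 7 of them E2F genes (E2f1, E2f2, E2f3, E2f4, E2f5, E2f7 and E2f8) and 3 of them pocket protein genes (Rb1, Rbl1 and Rbl2), and all 10 are among the 19178 gene rows of the deposited count table. The study sequenced poly(A) RNA of dendritic cells from Ptbp1 deficient mice in 5 libraries and from wild-type (WT) mice in 5 libraries, all aged 8 to 10 weeks, as paired 150 bp reads. Ptbp1 (polypyrimidine tract-binding protein 1) codes for a splicing regulator that binds RNA, and the comparison asks how transcripts differ when it is deficient. The labels give neither the altered part of Ptbp1 nor a Cre driver, tissue of origin or sex. Whether the 5 libraries of a group came from 5 different mice is also not stated, so the p-values cover the variation among libraries, which may be technical.

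E2F proteins bind promoters of genes needed for DNA synthesis and mitosis, and most act as dimers with a DP protein. E2F1, E2F2 and E2F3 are known mainly as activators, E2F4 and E2F5 as repressors that work with pocket proteins, and E2F7 and E2F8 as atypical repressors that bind DNA without a DP partner. The pocket proteins pRB (from Rb1), p107 (from Rbl1) and p130 (from Rbl2) hold E2F proteins in check until cyclin-dependent kinases phosphorylate them. With the MuvB core, p107 or p130 and a repressor E2F form the DREAM complex, which silences cell cycle genes in resting cells. Mature dendritic cells divide little, whereas their precursors and part of the conventional dendritic cells in lymphoid organs still divide.

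Several of these genes are themselves textbook E2F targets, so their promoters are shown before their values. The RefSeq promoter table of GRCm38.p6 holds 9 promoters of 7 of the genes, each with 250 bases before and 50 bases after the start; E2f4, E2f5 and Rb1 are not among them. Both strands were searched for the E2F site in its 4 forms TTTCCCGC, TTTCGCGC, TTTGCCGC and TTTGGCGC, and for TTTGAA, the cell cycle homology region (CHR) bound by MuvB complexes. The E2F letters were in 4 of the 9 promoters, of E2f2, E2f3, E2f7 and Rbl1, against 2.26% of the 32851 promoters in the table. TTTGAA was in 4 of the 9, of E2f2, E2f3, E2f8 and Rbl2, against 17.9% of all promoters. The E2f1 window searched (chr2:154569377-154569676, minus strand) held neither motif. That gene is annotated to start further upstream, at 154569892, so its annotated 5′ end was not searched. The promoter of E2f8 held no E2F letters. Both genes were higher in Ptbp1-deficient libraries. The stretches below, 5′ to 3′ on the strand of the gene, hold the E2F matches, and the CHR of E2f3 and E2f8, in genes that were higher in Ptbp1-deficient libraries, with the matched letters in capitals. For Rbl1 (chr2:157204505-157204654, minus strand) the E2F letters lie 18 to 11 bases before the start.
Rbl1: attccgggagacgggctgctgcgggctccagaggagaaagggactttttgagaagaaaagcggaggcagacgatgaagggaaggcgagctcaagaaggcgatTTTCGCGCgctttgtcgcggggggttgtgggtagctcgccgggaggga
For the upstream start of E2f3 (chr13:29986034-29986183, minus strand) a CHR lies 23 to 18 bases and an E2F match, in reverse, 11 to 4 bases before the start.
E2f3: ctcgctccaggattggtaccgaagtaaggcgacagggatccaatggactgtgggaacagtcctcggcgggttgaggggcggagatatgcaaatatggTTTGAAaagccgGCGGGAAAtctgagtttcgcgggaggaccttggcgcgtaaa
For E2f8 (chr7:48881567-48881716, minus strand) a CHR in reverse lies 20 to 15 bases before the start.
E2f8: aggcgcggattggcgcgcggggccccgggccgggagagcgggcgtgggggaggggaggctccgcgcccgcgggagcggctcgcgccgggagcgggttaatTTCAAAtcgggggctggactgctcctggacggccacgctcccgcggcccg
For E2f7 (chr10:110745189-110745338, plus strand) the E2F match, in reverse, lies 198 to 191 bases before the start.
E2f7: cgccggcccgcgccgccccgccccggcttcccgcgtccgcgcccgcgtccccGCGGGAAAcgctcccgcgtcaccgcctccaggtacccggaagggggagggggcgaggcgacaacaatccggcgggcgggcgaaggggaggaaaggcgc
For the upstream start of E2f2 (chr4:136172294-136172323, plus strand) the E2F match lies 40 to 47 bases after the start, and only the last 30 bases of the window are shown.
E2f2: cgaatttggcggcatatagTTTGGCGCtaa
A match in letters is a description of the sequence and not evidence of binding.

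Transcript levels were compared as CPM, a gene's counts scaled to the library total, after TMM normalization, with edgeR's quasi-likelihood test and Benjamini-Hochberg adjustment over all 18248 genes tested, and a gene was called at an adjusted p under 0.05. Of the 10 genes 9 were called, against 44.3% of all genes tested: 7 were higher in Ptbp1-deficient libraries (E2f1, E2f2, E2f3, E2f4, E2f7, E2f8 and Rbl1), 2 were lower (E2f5 and Rb1), and Rbl2 did not pass. Over all genes tested 21.7% were called higher and 22.6% lower. The median log2 fold change of the 10 was 0.32, against -0.03 over all genes tested. For 8 of the 10 the 5 Ptbp1-deficient libraries did not overlap the 5 WT libraries, as held for 33.4% of all genes, and E2f2 and Rbl2 were the exceptions. Every one of the 10 had at least 363 counts in each library, so all passed the filter on low counts in both groups.

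**Figure D1:**
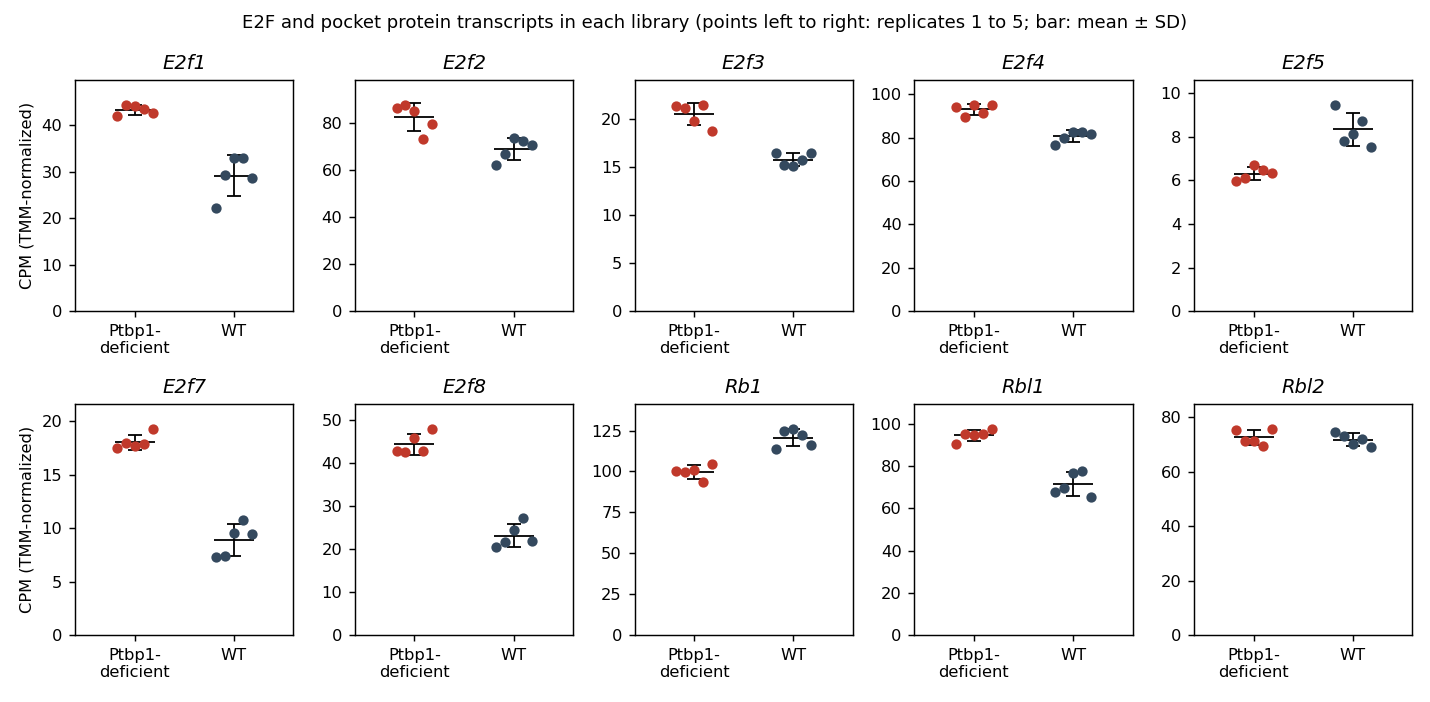
TMM-normalized CPM of the 10 genes in each library, Ptbp1-deficient on the left and WT on the right of each panel; points run from replicate 1 to 5, and the bars give the mean and SD over 5 libraries. The groups are apart for 8 genes, E2f5 and Rb1 lie lower in the Ptbp1-deficient libraries, and E2f2 and Rbl2 overlap.

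Ptbp1 itself was at 73.2 to 75.7 CPM in the Ptbp1-deficient libraries and at 259 to 312 CPM in the WT libraries, 0.253-fold the WT level and without overlap (log2 fold change -1.98, edgeR adjusted p = 2.1e-10). Depth ran between 61759378 and 92697815 gene counts in Ptbp1-deficient and between 50516163 and 66153758 in WT libraries. The 10 dendritic cell markers (Flt3, Itgax, Zbtb46 and others) had at least 4948 counts each in every library and summed to 34700 to 37600 CPM in Ptbp1-deficient and 29200 to 35500 CPM in WT libraries. Most of this sum came from Cd74, H2-Ab1 and H2-Aa. Cd74 alone was at 12920 to 14720 CPM in Ptbp1-deficient and 11940 to 14750 CPM in WT libraries. Of the 10 markers 4 were called higher and 1 lower in Ptbp1-deficient libraries. Markers of some other cells moved with the genotype. The macrophage list summed to 749 to 1560 CPM in Ptbp1-deficient against 2050 to 5570 CPM in WT libraries, with 11 of 15 markers lower and none higher. Within the Ptbp1-deficient group this sum was 781 and 749 CPM in replicates 1 and 2, and 1359 to 1558 CPM in replicates 3 to 5. Replicates 1 and 2 also had the fewest gene counts of that group, 61759378 and 64935948. The NK cell list summed to 202 to 286 CPM in Ptbp1-deficient against 60.2 to 100 CPM in WT libraries, with 6 of 10 higher and none lower. Within dendritic cells the cDC1 list summed to 5820 to 6800 CPM in Ptbp1-deficient against 3130 to 4320 CPM in WT libraries, with 10 of 10 higher, and the cDC2 list to 1040 to 1290 CPM in Ptbp1-deficient against 1540 to 1710 CPM in WT libraries, with 8 of 10 lower. Each of these 4 sums separated the groups fully, as did those of the T cell and erythroid lists (two-sided exact permutation test, p = 0.00794, the smallest that 5 against 5 libraries allow, and 0.0132 adjusted over 10 marker lists). The T cell and erythroid sums were lower in Ptbp1-deficient libraries, but each rested mostly on 1 gene. For T cells this was Cd4 (230 to 269.5 CPM in Ptbp1-deficient and 285 to 396 CPM in WT libraries), and 2 of 10 markers were called lower. For the erythroid list it was Tfrc (146 to 197 CPM in Ptbp1-deficient and 151 to 217 CPM in WT libraries), and none of 8 was called. The sums for plasmacytoid dendritic cells, for monocytes and neutrophils, and for B cells overlapped between the groups (exact permutation test, p = 0.349, 0.905 and 0.659). Every gene row deposited has at least 2 counts in each library, so no marker could be at 0. The part of these cells in the results was not tested. Some results are also given with the macrophage markers as a covariate. The macrophage sum separates the groups fully, so those fits cannot tell the part of macrophages from that of genotype. No such fit was made for the NK cell, cDC1 or cDC2 markers. In bulk RNA a change in the number of cells of a type and a change in RNA per cell cannot be told apart.

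The activator genes were all higher, E2f1 the most. E2f1 (ENSMUSG00000027490, chromosome 2, 154559407 to 154569892 on the minus strand of GRCm38) was at 42.0, 44.5, 44.2, 43.6 and 42.6 CPM in Ptbp1-deficient libraries and at 22.2, 29.4, 32.9, 32.9 and 28.65 CPM in WT libraries 1 to 5. Every Ptbp1-deficient library lay above every WT library, and WT replicate 1 was the lowest of all. The levels averaged 43.4 ± 1.07 CPM in Ptbp1-deficient against 29.2 ± 4.40 CPM in WT libraries (SD, n = 5 each), or 1.49-fold (log2 fold change 0.57, SE 0.089, edgeR adjusted p = 2.3e-04). The spread was 2.46% of the mean in Ptbp1-deficient and 15.1% in WT libraries. WT replicates 1 and 5 also held the highest macrophage sums, 3483 and 5569 CPM; without both, the log2 fold change of E2f1 was 0.45 (adjusted p = 1.5e-05), and with the mean log2 CPM of the macrophage list (the macrophage score) as a covariate it was 0.46 (adjusted p = 0.014).

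E2f3 (ENSMUSG00000016477, chromosome 13, 29906575 to 29986063, minus strand), transcribed from a pair of promoters into a longer and a shorter form that gene counts do not separate, was at 18.7 to 21.5 CPM in Ptbp1-deficient and 15.1 to 16.4 CPM in WT libraries. The groups did not overlap, and the rise was 1.30-fold (log2 fold change 0.38, SE 0.059, adjusted p = 2.0e-04); on the log2(FPKM + 1) scale it was 0.24, also past the test. E2f2 (ENSMUSG00000018983, chromosome 4, 136172394 to 136196057, plus strand), the remaining activator gene, was at 86.2, 87.8, 85.0, 73.2 and 79.8 CPM in Ptbp1-deficient and at 62.0, 67.0, 73.7, 72.2 and 70.6 CPM in WT libraries. Ptbp1-deficient replicate 4 fell within the WT range. The difference passed the test at 1.19-fold (log2 fold change 0.25, SE 0.061, adjusted p = 0.0043), but not with the macrophage score as a covariate (0.14, adjusted p = 0.20) or in the deposited FPKM values (0.12 on the log2(FPKM + 1) scale, limma adjusted p = 0.12).

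The repressor genes E2f4 and E2f5 moved apart. E2f4 (ENSMUSG00000014859, chromosome 8, 105297663 to 105305370, plus strand), whose product is the main E2F of resting cells, was at 89.6 to 95.4 CPM in Ptbp1-deficient and 76.5 to 82.9 CPM in WT libraries. These ranges did not overlap, and the difference was 1.15-fold (log2 fold change 0.21, SE 0.039, adjusted p = 7.8e-04); on the log2(FPKM + 1) scale it was 0.12 (limma adjusted p = 0.015). E2f5 (ENSMUSG00000027552, chromosome 3, 14578641 to 14606309, plus strand), a p130 partner, was at 5.97, 6.13, 6.69, 6.47 and 6.34 CPM in Ptbp1-deficient and at 9.49, 7.81, 8.13, 8.74 and 7.56 CPM in WT libraries. Every Ptbp1-deficient library lay below every WT library (log2 fold change -0.40, SE 0.084, adjusted p = 0.0019). The CPM of E2f5 divided by that of E2f4, a ratio that no scaling between libraries affects, averaged 0.0678 ± 0.00303 in Ptbp1-deficient and 0.104 ± 0.0123 in WT libraries, without overlap. With the macrophage score as a covariate the adjusted p of E2f5 was 0.047, the largest over 21 other settings. E2f5 shares 26 exon bases with 1810022K09Rik on the opposite strand, which was higher, at 20.8 CPM in Ptbp1-deficient and 17.2 CPM in WT libraries (adjusted p = 0.0085).

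The atypical genes E2f7 and E2f8 had the largest changes of the 10. E2f8 (ENSMUSG00000046179, chromosome 7, 48866429 to 48881596, minus strand) was at 42.7, 42.5, 45.8, 42.7 and 47.9 CPM in Ptbp1-deficient and at 20.5, 21.7, 24.4, 27.1 and 21.97 CPM in WT libraries. The lowest Ptbp1-deficient library stood well above the highest WT library, WT replicate 4. The rise was 1.92-fold (log2 fold change 0.94, SE 0.074, adjusted p = 8.7e-07). E2f7 (ENSMUSG00000020185, chromosome 10, 110745439 to 110787384, plus strand) was at 17.56, 17.96, 17.7, 17.86 and 19.31 CPM in Ptbp1-deficient and at 7.31, 7.46, 9.56, 10.8 and 9.49 CPM in WT libraries. Its groups were as clearly apart, with the Ptbp1-deficient libraries close together and the WT libraries more spread, 3.90% of the mean in Ptbp1-deficient against 16.8% in WT libraries. The rise was 2.03-fold (log2 fold change 1.02, SE 0.10, adjusted p = 6.7e-06). In the deposited FPKM values it was 0.63 on the log2(FPKM + 1) scale and 0.83 on the log2(FPKM + 0.1) scale, both past the test.

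Relative to E2f1 within the same library both atypical genes were also higher. The ratio of E2f8 to E2f1 CPM averaged 1.02 ± 0.0652 in Ptbp1-deficient and 0.799 ± 0.0776 in WT libraries, and the ratio of E2f7 to E2f1 averaged 0.417 ± 0.0214 in Ptbp1-deficient and 0.307 ± 0.0339 in WT libraries. Neither ratio overlapped between the groups. Gm2788, a noncoding gene that shares 610 exon bases with E2f8 on the opposite strand, was at 0.855 CPM in Ptbp1-deficient and 0.309 CPM in WT libraries, in counts far below E2f8 itself. The sources used here do not state whether counting used strand, so reads of E2f8 and Gm2788 may not have been told apart.

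**Figure D2:**
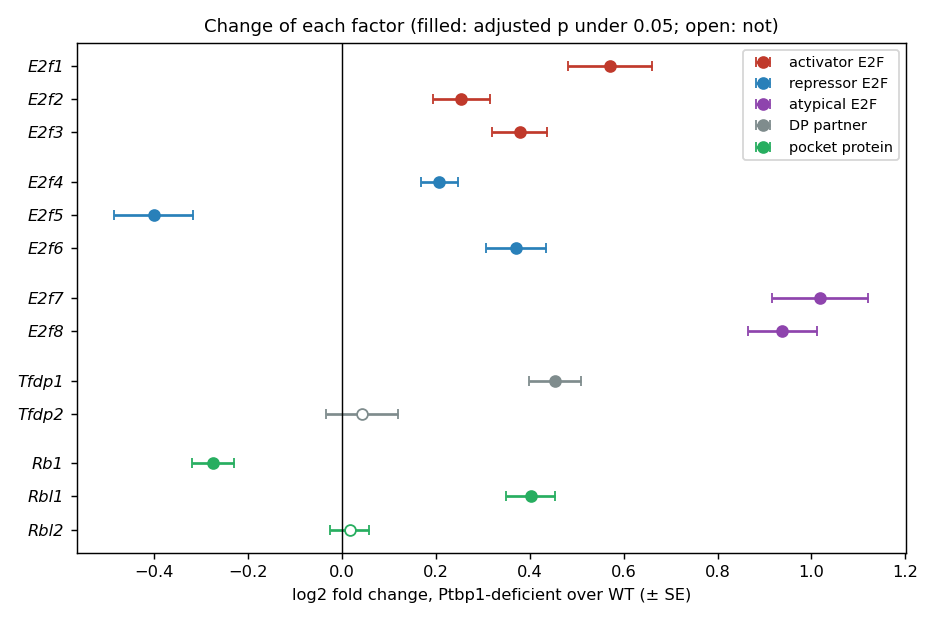
Log2 fold change of each gene, Ptbp1-deficient over WT, with its SE, grouped by role and with the DP genes and E2f6 added; filled points passed an adjusted p of 0.05. E2f7 and E2f8 lie near 1, the activators between 0.25 and 0.57, and E2f5 and Rb1 below 0.

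The pocket protein genes went different ways. Rb1 (ENSMUSG00000022105, chromosome 14, 73183673 to 73325822, minus strand) was at 100, 99.5, 100.8, 93.5 and 104.6 CPM in Ptbp1-deficient and at 113.9, 124.6, 126.0, 122.2 and 116.3 CPM in WT libraries. All Ptbp1-deficient libraries were below all WT libraries, with a ratio of 0.827 (log2 fold change -0.27, SE 0.044, adjusted p = 2.5e-04). Rbl1 (ENSMUSG00000027641, chromosome 2, 157145893 to 157204534, minus strand) was at 90.3, 95.2, 94.4, 94.9 and 97.5 CPM in Ptbp1-deficient and at 67.9, 69.6, 76.8, 77.7 and 65.4 CPM in WT libraries. Here all Ptbp1-deficient libraries were above all WT libraries, by 1.32-fold (log2 fold change 0.40, SE 0.052, adjusted p = 4.8e-05). The promoter of Rbl1 carries the E2F letters shown above, but no promoter of Rb1 was searched.

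Rbl2 (ENSMUSG00000031666, chromosome 8, 91070057 to 91123844, plus strand), whose product is the pocket protein most abundant in quiescent cells, was at 69.4 to 75.8 CPM in Ptbp1-deficient and 69.1 to 74.8 CPM in WT libraries. The ranges nearly coincided (log2 fold change 0.02, 95% interval -0.07 to 0.10, adjusted p = 0.78), and the sign of this small value varied between settings. The ratio of Rbl1 to Rb1 CPM was 0.903, 0.957, 0.936, 1.02 and 0.932 in Ptbp1-deficient and 0.596, 0.559, 0.609, 0.635 and 0.563 in WT libraries. This was the clearest shift in balance within the pocket proteins, with a wide gap between the groups. The ratio of Rbl1 to Rbl2 averaged 1.30 ± 0.0661 in Ptbp1-deficient and 0.996 ± 0.0851 in WT libraries, and that of Rbl2 to Rb1 averaged 0.729 ± 0.0194 in Ptbp1-deficient and 0.597 ± 0.0368 in WT libraries, again without overlap. Rb1 shares 408 and 488 exon bases with Lpar6 and Rcbtb2 on the opposite strand, and Rbl2 shares 693 with Aktip and 892 with Gm45464. Of these neighbours, named for their overlap, Rcbtb2 was higher (33.7 CPM in Ptbp1-deficient against 27.6 CPM in WT libraries, adjusted p = 0.0042), while Lpar6 (28.1 CPM in Ptbp1-deficient and 27.7 CPM in WT libraries, adjusted p = 0.94), Aktip (12.8 CPM in Ptbp1-deficient and 12.4 CPM in WT libraries, adjusted p = 0.57) and Gm45464 (2.59 CPM in Ptbp1-deficient and 2.38 CPM in WT libraries, adjusted p = 0.61) did not pass.

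Levels can be set between genes only per length, for which the FPKM values as deposited were used first; all 10 genes are in that table, and the order of several of them differs from that in counts per exon length, given after it. In FPKM E2f4 was the highest, at 43.1 to 45.9 FPKM in Ptbp1-deficient and 40.2 to 41.6 FPKM in WT libraries, and Rb1 came second, at 21.5 to 24.0 FPKM in Ptbp1-deficient and 27.9 to 30.6 FPKM in WT libraries. In Ptbp1-deficient libraries Rbl1 came next (18.45 to 20.04 FPKM), followed by E2f2 (14.7 to 18.4) and Rbl2 (15.2 to 17.1), whose ranges overlapped, then E2f1 (13.1 to 13.8) and E2f8 (10.96 to 12.39). The lowest were E2f3 (3.38 to 3.92) and E2f7 (3.52 to 3.99), which overlapped, and E2f5 (2.94 to 3.29 FPKM). In WT libraries Rbl2 (14.9 to 18.9), Rbl1 (13.9 to 16.6) and E2f2 (14.6 to 16.0 FPKM) overlapped, E2f1 was at 7.52 to 10.4 and E2f8 at 5.79 to 7.07 FPKM. E2f5 (3.92 to 5.08) then stood above E2f3 (2.77 to 3.34) and E2f7 (1.67 to 2.23 FPKM), which was last. In FPKM E2f5 was thus below E2f7 in Ptbp1-deficient and above it in WT libraries.

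That change of order was not found in CPM divided by exon length in kilobases (RPKM from counts, with the exon lengths of GENCODE M21, an alternative chosen after seeing the data). E2f7 was the lowest there in both groups, at 1.95 to 2.14 RPKM in Ptbp1-deficient and 0.811 to 1.20 RPKM in WT libraries, and E2f5 was above it, at 3.35 to 3.76 RPKM in Ptbp1-deficient and 4.24 to 5.33 RPKM in WT libraries. E2f4 was again the highest, at 36.5 to 38.9 RPKM in Ptbp1-deficient and 31.2 to 33.8 RPKM in WT libraries. In Ptbp1-deficient libraries Rb1 (15.6 to 17.4), E2f2 (14.99 to 17.99) and Rbl1 (15.1 to 16.3 RPKM) overlapped, and Rbl2 (9.18 to 10.03) lay below E2f1 (13.3 to 14.1 RPKM). In WT libraries Rb1 was second at 18.9 to 20.96 RPKM, apart from the genes below it.

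**Figure D3:**
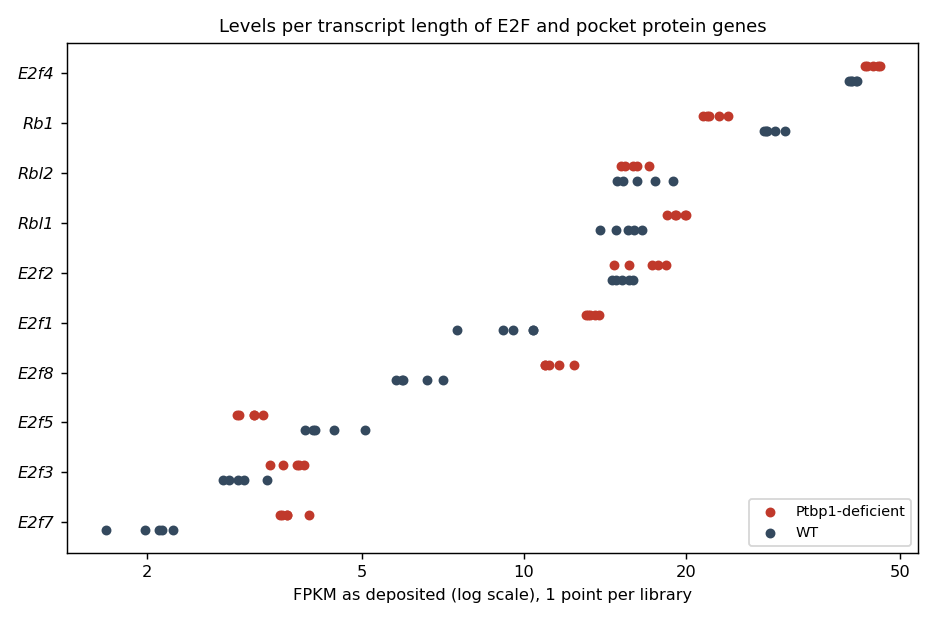
FPKM as deposited for the 10 genes on a log axis, 1 point per library, Ptbp1-deficient above WT in each row. E2f4 is the highest in both groups, and E2f7 is the lowest in WT and E2f5 in Ptbp1-deficient libraries, whereas in RPKM from counts E2f7 is the lowest in both.

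As a share of the summed FPKM of the 3 pocket protein genes, Rb1 made up 38.9% ± 1.01 in Ptbp1-deficient and 47.4% ± 1.85 in WT libraries (SD, n = 5 each). Rbl1 made up 33.4% ± 0.854 in Ptbp1-deficient and 25.3% ± 1.6 in WT libraries, while Rbl2 made up 27.6% ± 0.462 in Ptbp1-deficient and 27.2% ± 1.97 in WT libraries. The shares of Rb1 and Rbl1 did not overlap between the groups, and those of Rbl2 did. Among the 7 E2F genes, E2f4 held 46.1% ± 0.857 in Ptbp1-deficient and 50.4% ± 1.44 in WT libraries. E2f8 held 11.8% ± 0.619 in Ptbp1-deficient and 7.73% ± 0.504 in WT libraries, and E2f7 held 3.80% ± 0.204 in Ptbp1-deficient and 2.49% ± 0.240 in WT libraries. E2f5 held 3.21% ± 0.183 in Ptbp1-deficient and 5.32% ± 0.605 in WT libraries, and E2f1 held 13.9% ± 0.431 in Ptbp1-deficient and 11.6% ± 1.31 in WT libraries. In RPKM from counts the shares again differed without overlap, in the same directions, for Rb1, Rbl1, E2f1, E2f4, E2f5, E2f7 and E2f8, but at other levels. The share of E2f7 was 2.33% ± 0.0993 in Ptbp1-deficient and 1.43% ± 0.174 in WT libraries, that of E2f8 9.45% ± 0.447 in Ptbp1-deficient and 6.13% ± 0.42 in WT libraries, and that of E2f5 4.12% ± 0.191 in Ptbp1-deficient and 6.80% ± 0.89 in WT libraries. Rbl2 made up 22.9% ± 0.616 of the pocket protein sum in Ptbp1-deficient and 22.9% ± 1.16 in WT libraries. Fold changes differed between the tables too: the difference of Ptbp1 was -1.18 on their log2(FPKM + 1) scale, against -1.98 from counts.

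The DP partners and E2f6 changed less than the atypical genes. Tfdp1, which encodes the DP1 partner of E2F proteins, averaged 72.4 ± 3.78 CPM in Ptbp1-deficient and 52.9 ± 3.84 CPM in WT libraries (log2 fold change 0.45, adjusted p = 3.3e-05; 0.25 on the log2(FPKM + 1) scale, also past the test), and Tfdp2, for the second DP partner, 17.0 ± 1.15 CPM in Ptbp1-deficient and 16.5 ± 1.58 CPM in WT libraries (0.04, adjusted p = 0.69). E2f6, a repressor that works without pocket proteins, averaged 22.2 ± 0.763 CPM in Ptbp1-deficient and 17.2 ± 1.44 CPM in WT libraries (0.37, adjusted p = 4.6e-04). Of the 7 genes of the MuvB core and its activating partners 5 rose and none fell, against 21.7% called higher and 22.6% lower over all genes tested. The activating partners had the largest values, Foxm1 at 62.8 ± 2.87 CPM in Ptbp1-deficient against 31.7 ± 3.22 CPM in WT libraries (1.98-fold, adjusted p = 2.3e-07) and Mybl2 (B-MYB) at 21.9 ± 1.58 CPM in Ptbp1-deficient against 11.6 ± 1.64 CPM in WT libraries (1.88-fold, adjusted p = 8.7e-06). The core genes Lin9 (16.2 CPM in Ptbp1-deficient against 12.9 CPM in WT libraries, adjusted p = 0.0028) and Rbbp4 (191.5 CPM in Ptbp1-deficient against 159.4 CPM in WT libraries, adjusted p = 9.95e-04) rose less, but Lin9 did not pass once the macrophage score was a covariate (adjusted p = 0.13), where 3 of the 7 rose, as in FPKM.

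Upstream, 6 of 9 cyclin and kinase genes rose and 2 fell, against 21.7% called higher and 22.6% lower over all genes tested. Ccna2 (cyclin A2) averaged 71.6 ± 6.77 CPM in Ptbp1-deficient and 29.6 ± 2.82 CPM in WT libraries (2.42-fold, adjusted p = 1.3e-07), Ccne1 (cyclin E1) 16.5 ± 1.45 CPM in Ptbp1-deficient and 6.95 ± 0.797 CPM in WT libraries (2.37-fold, adjusted p = 6.3e-07), and Ccnd2 (cyclin D2) 176.0 ± 24.96 CPM in Ptbp1-deficient and 84.4 ± 7.82 CPM in WT libraries (2.08-fold, adjusted p = 6.5e-06). The D-cyclin kinase gene Cdk6 went the other way, at 30.1 ± 0.751 CPM in Ptbp1-deficient against 44.6 ± 5.65 CPM in WT libraries (log2 fold change -0.57, adjusted p = 4.9e-05). The other gene that fell, Ccnd1 (cyclin D1), was at 434.2 CPM in Ptbp1-deficient against 501.1 CPM in WT libraries (adjusted p = 0.025), and it was named after its value was seen; 1 of the 9 fell without WT replicate 2, without WT replicate 4, or without Ptbp1-deficient replicates 1 and 2. Of 7 CDK inhibitor genes 2 rose and none fell, against the same shares of 21.7% and 22.6% over all genes tested. Cdkn2c (p18) averaged 38.8 ± 2.55 CPM in Ptbp1-deficient against 22.3 ± 2.73 CPM in WT libraries (adjusted p = 6.6e-06). Cdkn2d (p19) averaged 24.8 ± 0.936 CPM in Ptbp1-deficient against 15.7 ± 3.70 CPM in WT libraries (adjusted p = 0.0011).

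The 2 lists of genes known as targets of these factors were higher throughout, where 21.7% of all genes tested were called higher. All 35 G1/S genes on the list of E2F targets rose, with a median log2 fold change of 0.67 (1.59-fold) and a range of 0.24 to 1.28, and all 29 G2/M genes known as DREAM targets rose, with a median of 1.13 (2.19-fold) and a range of 0.78 to 1.68. Among the G1/S genes, Rrm2, the small subunit of ribonucleotide reductase, averaged 97.2 ± 7.15 CPM in Ptbp1-deficient and 40.0 ± 6.73 CPM in WT libraries (2.43-fold, adjusted p = 5.2e-06) and the checkpoint gene Clspn 35.3 ± 2.37 CPM in Ptbp1-deficient and 17.8 ± 1.83 CPM in WT libraries (1.98-fold, adjusted p = 6.7e-07). Of the G2/M genes, Ect2, a cytokinesis exchange factor gene, averaged 44.6 ± 3.49 CPM in Ptbp1-deficient and 13.9 ± 1.89 CPM in WT libraries (3.21-fold, log2 fold change 1.68, adjusted p = 6.6e-08; 1.07 on the log2(FPKM + 1) scale). Cell cycle genes were already known to be higher in these libraries, and the lists were drawn up with that in view. In the promoter table the E2F letters were in 13 of 34 promoters of G1/S genes and 1 of 27 of G2/M genes, against 2.26% of all promoters. TTTGAA was in 3 of 34 and 22 of 27, against 17.9%.

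**Figure D4:**
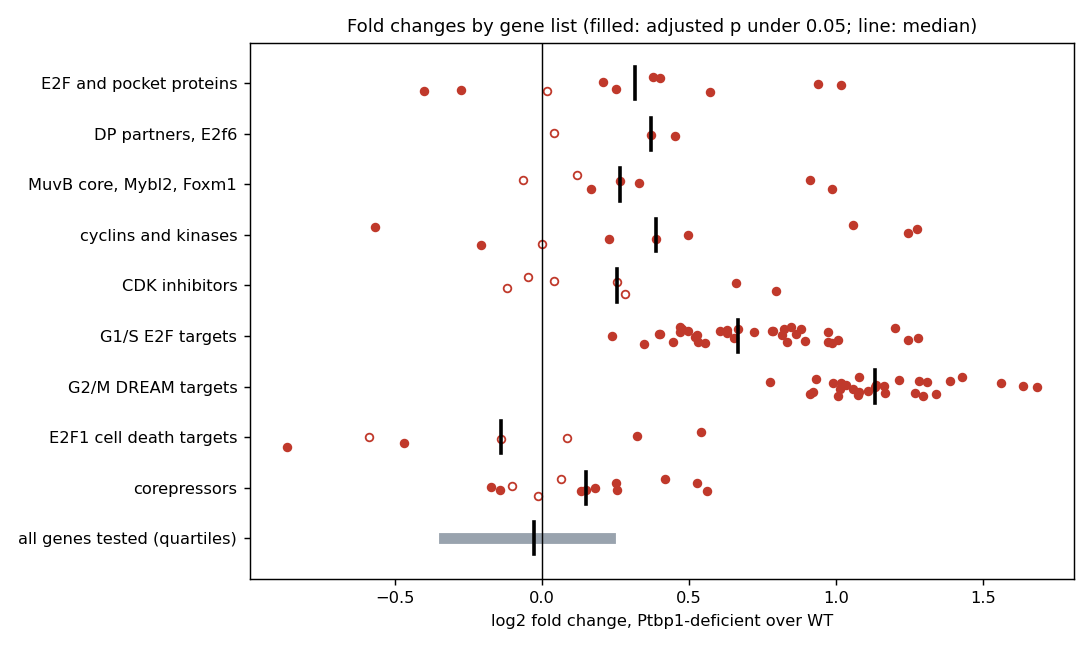
Log2 fold change, Ptbp1-deficient over WT, of every tested gene in each list; filled points passed an adjusted p of 0.05, black lines are medians, and the grey bar spans the quartiles of all genes tested, -0.33 to 0.23. The medians of the G1/S and G2/M targets, 0.67 and 1.13, lie to the right of that bar, and the 10 E2F and pocket protein genes range from -0.40 to 1.02.

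Genes that E2F1 is known to induce in cell death did not move one way. Of 8 on the list 7 were tested: 2 rose, 2 fell, and the median difference was -0.14 on the log2 scale. Over all genes tested 21.7% were called higher and 22.6% lower. Bbc3, which encodes the BH3-only protein PUMA, averaged 18.2 ± 0.592 CPM in Ptbp1-deficient and 33.1 ± 5.34 CPM in WT libraries (log2 fold change -0.87, adjusted p = 1.3e-05), and Trp53inp1 55.0 ± 4.37 CPM in Ptbp1-deficient and 76.2 ± 5.09 CPM in WT libraries (-0.47, adjusted p = 5.6e-05, and -0.30 with the macrophage covariate, adjusted p = 0.0034). Under upper-quartile normalization 4 of the 7 fell. Of 13 genes for corepressors that pocket proteins recruit 8 rose and 2 fell, against the same 21.7% and 22.6% (median log2 difference 0.15). The methyltransferase genes Suv39h1 (38.9 ± 3.07 CPM in Ptbp1-deficient and 26.4 ± 1.85 CPM in WT libraries, adjusted p = 2.0e-05) and Dnmt1 (142.8 ± 7.68 CPM in Ptbp1-deficient and 99.1 ± 7.36 CPM in WT libraries, adjusted p = 1.1e-05) had the largest rises. The genes that fell, Sin3a (91.7 CPM in Ptbp1-deficient and 101.3 CPM in WT libraries, adjusted p = 0.0090) and Arid1a (459.5 CPM in Ptbp1-deficient and 517.9 CPM in WT libraries, adjusted p = 0.042), were named after their values were seen. With 1 library left out, 1 of the 13 fell for 8 of the 10 libraries, and 2 and 3 fell without Ptbp1-deficient replicates 1 and 2 in turn; 5 of the 13 rose with the macrophage covariate or in FPKM.

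The genes most like each member over the 10 libraries were found among 9447 protein-coding genes outside the lists, by Pearson's r of log2 CPM. For E2f8 and for E2f7 it was the same gene, Ncapg, a condensin subunit gene (r = 0.998 and 0.993, n = 10). Cct7 was nearest to E2f1 (r = 0.991), Mrpl16 to Rbl1 (r = 0.991), Hdgf to E2f4 (r = 0.993) and Zbtb44 to Rb1 (r = 0.982). Rbl2, the only one of the 10 without a call, had the lowest such value, 0.850 with Ccdc181. The libraries form 2 groups, and these values include the difference between them; with each group's mean removed, Ikzf1 was nearest to E2f2 (r = 0.984, against 0.977 over the libraries as they are), and for the other genes a different gene was nearest.

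**Figure D5:**
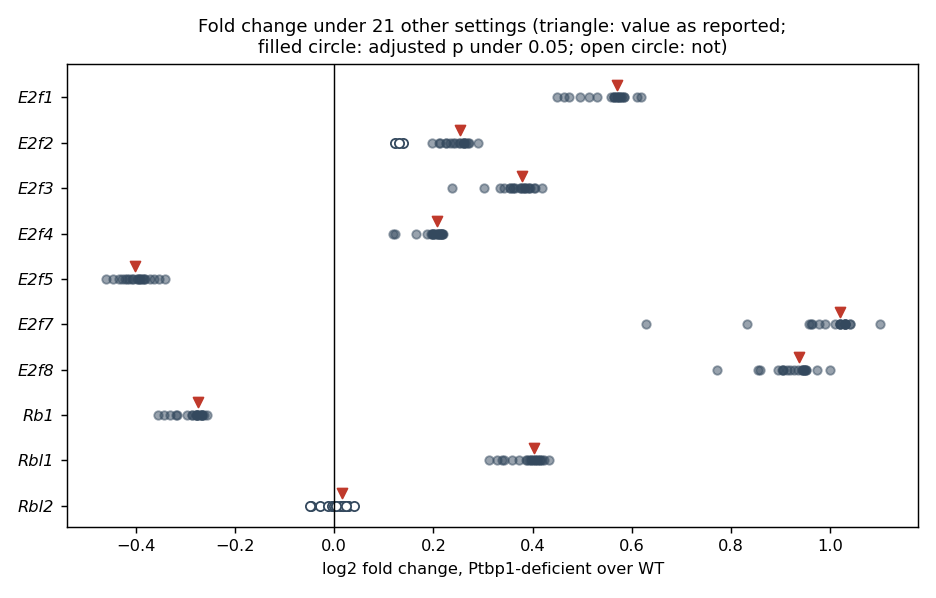
Log2 fold change of each gene as reported (triangle) and under 21 other settings (circles: other normalizations, filters, tools, FPKM values, covariates and libraries left out); filled circles passed an adjusted p of 0.05. E2f1, E2f3, E2f4, E2f5, E2f7, E2f8, Rb1 and Rbl1 stay on their side of 0 and pass at every setting, E2f2 loses its call at 3 of them, and Rbl2 crosses 0.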

How the data were processed

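The members and gene lists were chosen with earlier results of these data known. Raw counts per gene were deposited by the authors; HISAT2, StringTie and DESeq2 were used, per the submitters' processing notes, which name the human build GRCh38, whereas the gene identifiers are mouse Ensembl ones. Counting tool and strand setting: not given in the sources used here. The table has at least 2 counts per gene row in every library. Gene rows hold 69.4% to 74.1% of all counts; the rows for reads outside genes, ambiguous, low-quality, unaligned and not unique reads were left out. The authors also deposited FPKM values, for 11968 genes with at least 1.00 in every library; 10 repeated identifiers were summed. Symbols and coordinates came from GENCODE M21 (GRCm38), matching 99.3% of identifiers, and promoters from RefSeq. All columns were matched to labels.

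Genes were filtered with filterByExpr, leaving 18248, and fitted with TMM factors and edgeR's robust quasi-likelihood test on genotype alone (R 4.3.3 with edgeR 4.0.16 and, for FPKM, limma 3.58.1); the fit was tested on simulated data. The SE is the log2 fold change divided by the root of F. Marker sums were compared by exact permutation over all assignments of 5 libraries. Named genes were the 10 members, Ptbp1, E2f6, Tfdp1 and Tfdp2, up to 4 called genes of each other list with the smallest adjusted p, and the protein-coding genes of at least 5 CPM nearest to each member, with and without group means; the text prints some of them, and 2 are not reported here. Alternatives were RLE and upper-quartile factors, DESeq2 1.42.0, dropping the filter, requiring 1 CPM in 5 libraries, a replicate block, the macrophage covariate, limma on log2(FPKM + 1) and log2(FPKM + 0.1), an adjusted p under 0.01, libraries left out and, for levels, RPKM from counts.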

Additional observations from a re-analysis of the deposited data

Results flagged for a closer look

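In a screen of 98 groups of 5 values (named genes and marker sums) for a single library apart from the rest, 7 stood out; chance gives about 1 in 20. E2f7 was at 19.3 CPM in Ptbp1-deficient replicate 5 and at 17.56 to 17.96 CPM in the other Ptbp1-deficient libraries, and Foxm1 was at 67.8 CPM in the same library and at 60.5 to 62.6 CPM in the others. In WT replicate 5 Cdkn2d was at 22.1 CPM, against at most 15 CPM in the other WT libraries. The same WT library held the highest marker sums for plasmacytoid dendritic cells (748 CPM, others 371 to 458), monocytes and neutrophils (558 CPM, others 104 to 186), B cells (1830 CPM, others 351 to 651) and NK cells (100 CPM, others 60.2 to 63.3). Without Ptbp1-deficient replicate 5 the log2 fold change of E2f7 was 0.99 (edgeR adjusted p = 3.6e-05), and without WT replicate 5 it was 1.04 (adjusted p = 6.4e-06).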

How the results depend on the processing

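Over the alternatives 7 of the 10 genes were called higher, or 6 where E2f2 lost its call (limma on FPKM with either pseudocount, and the macrophage covariate), and 2 were called lower throughout; the cause was not tested. The 35 G1/S targets gave 32 to 35 and the 29 G2/M targets 28 to 29 rises. Over all genes 3955 were called higher, against 2435 with limma on FPKM with either pseudocount, a table with fewer genes. Rbl2, not called, turned to -0.0288 with upper-quartile factors, -0.0119 with the macrophage covariate and -0.0465 and -0.0488 with limma on FPKM with pseudocounts of 1 and 0.1, and ranged from -0.00465 to 0.0399 with single libraries left out. Tfdp2, also not called, turned to -0.0022 with upper-quartile factors and to -0.162 and -0.214 in those FPKM values, and ranged from -0.00439 to 0.0874 with single libraries left out. The log2 ratios of marker sums turned without both WT replicates 1 and 5, to 0.0377 for plasmacytoid dendritic cells, 0.495 for monocytes and neutrophils and 0.288 for B cells; with single libraries left out, those of monocytes and neutrophils ranged from -0.615 to 0.282 and of B cells from -0.814 to 0.0524. With the replicate number as a block 7 genes were called higher and 2 lower, as without it, and over all genes 3756 and 3714. Same-numbered libraries correlated at -0.096 to 0.11, with 1 pair of 5 over 0.1. In no pair did each library correlate best with its own number. No pairing by number was seen, but these correlations cannot exclude a weak one. Depth did not limit the 10 genes, with at least 363 counts each, but counts cannot separate isoforms or genes that overlap on opposite strands.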
